A study of Mus musculus with 16 samples.

Results

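The 10 genes described here, C1qa, C1qb, C1qc, Vcam1, Adgre1, Mertk, Axl, Cd68, Spic and Mrc1, are those commonly used to mark macrophages that reside in the bone marrow. They were taken by symbol from the list of 16612 genes that appear in either of 2 tables of normalized counts, one for leukemic cells (tumor) and one for every other cell of the marrow (stroma). Of the 10 genes, 9 were listed in the tumor table (15080 genes) and 5 in the stroma table (13344 genes): C1qa, Vcam1, Adgre1, Axl and Mrc1. C1qb, C1qc, Mertk and Cd68 in stroma, and Spic in both compartments, are not analysed here.

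Resident marrow macrophages sit among developing red cells and in the stem cell niche, where they engulf expelled nuclei, dying cells and aged red cells and recycle their iron. The C1q chains form the recognition part of the first complement component and coat dying cells, and Axl and Mertk are receptor tyrosine kinases that bind such cells through bridging ligands. Vcam1 is an adhesion molecule that holds erythroblasts and lymphoid cells, Adgre1 encodes the F4/80 antigen, Mrc1 the mannose receptor CD206, Cd68 a lysosomal membrane glycoprotein, and Spic a transcription factor of iron-recycling macrophages. Several of these genes are also made elsewhere: Vcam1 and Axl by mesenchymal and endothelial cells, Mrc1 by sinusoidal endothelium and dendritic cells, and Cd68 by monocytes and neutrophil precursors.

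The study injected 500000 mCherry-labelled BCR-ABL+ Arf-/- B-ALL cells (B-cell acute lymphoblastic leukemia) by tail vein into C57BL/6J hosts of 6 to 8 weeks, either wild type (WT) or with a germline deletion of Il6 (IL-6 KO). On day 8, without treatment, live marrow cells of femur and tibia were sorted after red cell lysis into mCherry+ (tumor) and mCherry- (stroma) cells, and rRNA-depleted RNA was sequenced. Each of the 4 groups (WT tumor, IL-6 KO tumor, WT stroma and IL-6 KO stroma) held 4 libraries. The deletion was in the host alone, since the injected leukemic cells were the same in both hosts, and the stroma gate was a negative one that takes every cell without mCherry. The labels do not say which libraries came from separate mice, so the p-values measure the spread between these samples.

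The tables hold read estimates divided by a size factor and not whole reads, so the depth of each library is unknown. The summed normalized count was 38817792 to 44552085 in WT tumor, 47267047 to 55592959 in IL-6 KO tumor, 8805689 to 17470735 in WT stroma and 33973016 to 44191950 in IL-6 KO stroma. The 4 stroma libraries of each genotype had similar medians over genes (65.4 to 71.8 in WT and 68.3 to 71.6 in IL-6 KO), and 24.0% of the genes in the stroma table were at 0 in at least 1 library, against 3.55% in the tumor table. Because the tables were normalized separately, genotypes were tested within a table, and levels were set across tables only as a rank within each library.

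Of the 10 genes, 3 lie side by side. In the mouse GRCm38 annotation (GENCODE vM21, which matches the mm10 build of the study), C1qb (chr4:136880129-136886187), C1qc (chr4:136889804-136893065) and C1qa (chr4:136895917-136898803) follow each other on the minus strand. Mrc1 (chr2:14229392-14332057, plus strand) and Mertk (chr2:128698956-128802894, plus strand) share a chromosome but are far apart. None of the 31-base words in the transcripts of 8 genes occurred in the transcript of a gene outside these 10. Of the words of Vcam1 1.87% did, and of those of Spic 5.79%. Words shared among the 10 genes were not searched for. Antisense genes overlap Vcam1 (Gm43109) and Mertk (Gm14011), and Mir511 lies within Mrc1 on the same strand.

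The promoters of Mrc1 and C1qb are shown because these genes had very different levels in the same mCherry+ libraries. Each is the 250 bases before the gene start given by RefSeq (GRCm38.p6), written 5′ to 3′ on the strand of the gene. Capitals mark GAGGAA or its reverse complement TTCCTC, a motif bound by ETS factors such as PU.1 and Spi-C. The shorter ETS core GGAA also occurs outside this motif and is not marked.
Mrc1, chr2:14229164-14229413, plus strand: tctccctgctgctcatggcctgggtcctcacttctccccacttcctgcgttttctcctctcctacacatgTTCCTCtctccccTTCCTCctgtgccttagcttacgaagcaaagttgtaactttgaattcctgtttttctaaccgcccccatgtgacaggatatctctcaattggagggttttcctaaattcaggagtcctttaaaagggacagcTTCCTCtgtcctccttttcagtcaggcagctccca
C1qb, chr4:136886201-136886450, minus strand: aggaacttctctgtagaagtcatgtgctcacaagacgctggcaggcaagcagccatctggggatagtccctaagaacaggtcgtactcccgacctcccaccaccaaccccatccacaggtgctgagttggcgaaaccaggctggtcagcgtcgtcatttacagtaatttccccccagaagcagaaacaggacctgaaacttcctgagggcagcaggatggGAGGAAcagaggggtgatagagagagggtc

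The marked motif occurred 3 times before Mrc1 and 1 time before C1qb. It was found, on either strand, in 5 of the 7 genes with such a window (C1qb, C1qc, Axl, Cd68 and Mrc1, but not Mertk or Spic) and in 23.3% of all 32851 promoter windows of that length. The match is a description of letters, and binding was not measured. Spi1, which encodes PU.1, had a normalized count of 2104 to 2687 in the tumor libraries and of 226 to 737 in the stroma libraries.

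In stroma, the C1q chain and the mannose receptor were near 0, taken here as a group mean normalized count under 10. C1qa was 0, 3.1, 14.4 and 5.5 in WT libraries 1 to 4 (mean 5.74 ± 6.20, SD, n = 4) and 0, 6.5, 0 and 0 in the IL-6 KO libraries (1.64 ± 3.27, SD, n = 4). Mrc1 was 9.8, 1.2, 0 and 8.3 in WT (4.83 ± 4.95, SD, n = 4) and listed at 0 in all 4 IL-6 KO libraries. Both genes thus had libraries at 0 in each genotype, and the genotypes overlapped.

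The other 3 genes were low but above that limit in both stroma groups. Vcam1 was 0, 15.5, 6.9 and 22.4 in WT and 16.7, 90.1, 0 and 35.1 in IL-6 KO stroma. Adgre1 was 50.5, 11.6, 15.4 and 20.1 in WT and 10.1, 118, 14.4 and 169 in IL-6 KO stroma. Axl was 5.2, 40.9, 44.3 and 5.7 in WT and 53.5, 29.1, 34.8 and 24.7 in IL-6 KO stroma. Vcam1 and Adgre1 were each highest in IL-6 KO libraries 2 and 4, which were also the highest stroma libraries for Ptprc, the pan-leukocyte antigen CD45 (653 and 1240, against 136 to 433 in the others). Axl was not highest in those libraries, and for all 3 genes the values of the genotypes overlapped.

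In tumor, no listed gene was near 0 in either group, and Mrc1 stood apart from the other 8 genes. Mrc1 was 1363, 1442, 1490 and 1331 in WT and 1494, 1227, 1712 and 1483 in IL-6 KO tumor. The values of the other genes lay between 8.2 and 276 in the 8 libraries. Per kilobase of the longest transcript, Mrc1 was 3.04 to 5.77 times the next highest of the 9 genes in the same library.

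**Figure D1:**
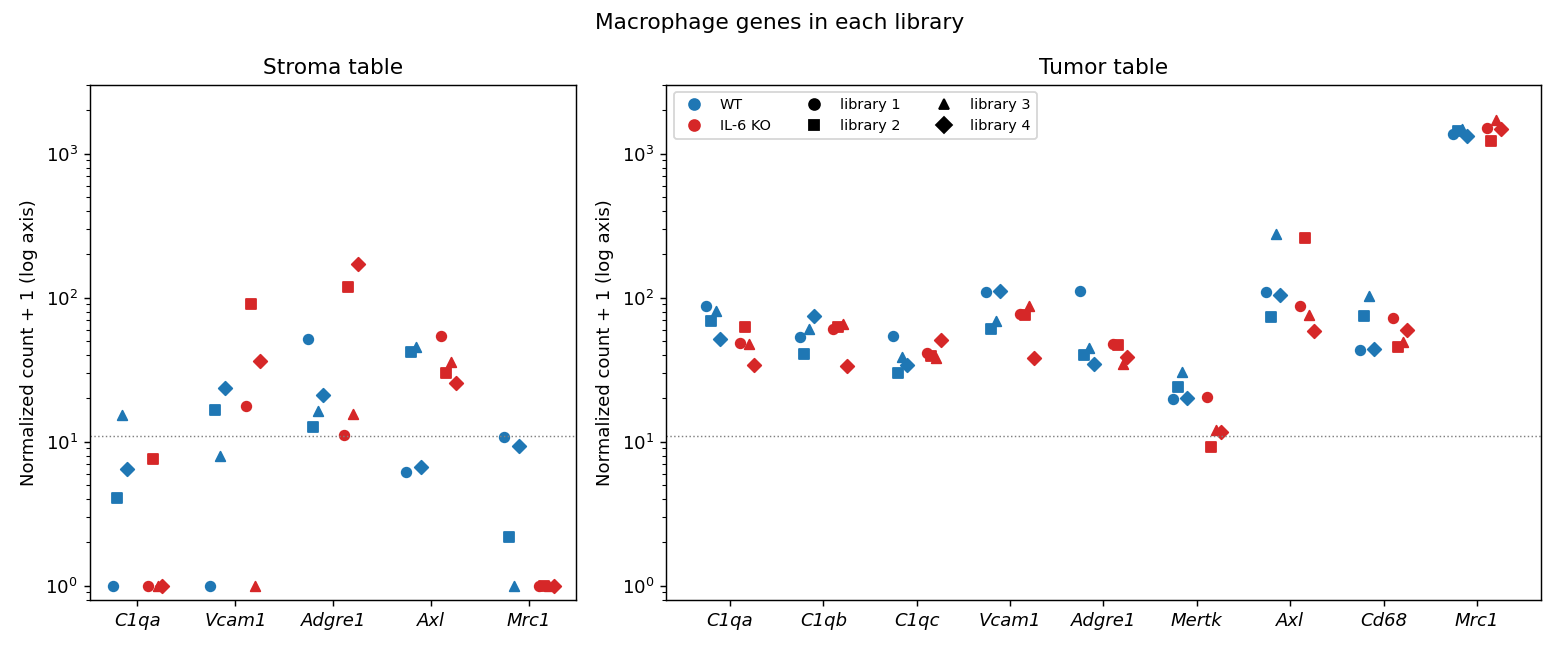
Normalized count plus 1 (log axis) of each listed macrophage gene in each library of the stroma table (left) and the tumor table (right), with WT in blue, IL-6 KO in red and a marker shape for each library number; the dotted line is a normalized count of 10. Mrc1 is at or below 9.8 in every stroma library and between 1227 and 1712 in every tumor library, and values are not comparable across the panels because the tables were normalized separately.

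The complement chains were all low in the mCherry+ libraries, with C1qa above C1qc per kilobase in each WT library. C1qa was 86.7, 68.4, 79.4 and 50.8 in WT and 47.7, 62.0, 46.7 and 33.2 in IL-6 KO tumor. C1qb was 52.5, 39.4, 59.9 and 73.9 in WT and 59.7, 61.1, 64.7 and 32.4 in IL-6 KO tumor. C1qc was 53.0, 28.8, 38.0 and 33.1 in WT and 40.4, 38.4, 37.2 and 50.02 in IL-6 KO tumor. C1qa was lower in IL-6 KO tumor by its mean, whereas the means of C1qb (56.4 and 54.5) and C1qc (38.2 and 41.5) differed by less than their SDs. In WT, C1qa and C1qc were highest in library 1 and C1qb in library 4, and in IL-6 KO tumor the 3 chains were highest in 3 different libraries (2, 3 and 4).

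Of the receptors for dying cells, Mertk was the lowest of the 9 genes and Axl the most variable on the log2 scale. Mertk was 18.8, 23.1, 29.3 and 19.0 in WT and 19.4, 8.2, 11.1 and 10.8 in IL-6 KO tumor, so that IL-6 KO library 1 lay within the WT range and the other 3 below it. Axl was 109, 71.9, 276 and 103 in WT and 86.4, 259, 74.5 and 57.5 in IL-6 KO tumor, with 1 high library in each genotype. The part of mesenchymal or endothelial cells in those values was not tested.

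Among the adhesion, surface and lysosomal genes, Vcam1 was 108, 59.8, 67.9 and 110.5 in WT and 75.9, 75.3, 86.3 and 37.4 in IL-6 KO tumor. Adgre1 was 109, 39.2, 43.4 and 33.8 in WT and 46.4, 46.2, 33.5 and 37.9 in IL-6 KO tumor. Cd68 was 42.3, 73.0, 102 and 42.9 in WT and 70.9, 44.5, 48.3 and 58.8 in IL-6 KO tumor. The genotypes overlapped for all 3, and the higher Adgre1 mean of WT (56.4 ± 35.5 against 41.0 ± 6.37, SD, n = 4 each) rested on WT library 1.

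Ordered by mean normalized count per kilobase, the genes of WT tumor ran from Mrc1 (262 ± 13.5, SD, n = 4) through C1qa (68.6 ± 15.0), Cd68 (53.0 ± 23.3), C1qb (51.8 ± 13.2), Axl (32.8 ± 21.6), C1qc (31.8 ± 8.75), Vcam1 (21.2 ± 6.46) and Adgre1 (17.4 ± 11.0) to Mertk (5.24 ± 1.14). Only Mrc1 above C1qa, and Adgre1 above Mertk, were neighbours whose 4 values did not overlap. In IL-6 KO tumor, Mrc1 (275 ± 36.9) was again followed by a group whose neighbours overlapped, from C1qb (50.1 ± 13.6) to Adgre1 (12.7 ± 1.97), and Mertk (2.87 ± 1.13) was again the lowest with no overlap. In stroma, all neighbours in the order overlapped, with Adgre1 first in WT (7.53 ± 5.48) and in IL-6 KO (24.1 ± 24.3) and Mrc1 last in both (0.90 ± 0.92 in WT and 0 in IL-6 KO).

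To set the compartments side by side, each gene was ranked by its level per kilobase within its own library. The ranking was among those of the 11812 genes listed in both tables that had a transcript length in the annotation. Mrc1 was at percentile 46.6 to 49.3 in WT tumor and 44.8 to 53.0 in IL-6 KO tumor, but at 0 to 10.2 in WT stroma and at 0 in IL-6 KO stroma. C1qa was at 20.9 to 26.5 in WT tumor and 18.7 to 23.2 in IL-6 KO tumor, while its stroma libraries ran from 0 to 32.7 in WT and from 0 to 18.8 in IL-6 KO. Vcam1 averaged 13.6 and 13.5 in WT and IL-6 KO tumor and 8.81 and 21.2 in WT and IL-6 KO stroma. Axl averaged 16.4 in both tumor groups and 16.1 and 24.2 in WT and IL-6 KO stroma. Adgre1 ranked higher in stroma by its means, which were 20.0 in WT stroma and 39.1 in IL-6 KO stroma against 11.7 in both tumor groups, and its WT libraries overlapped between the compartments (10.5 to 36.2 in stroma and 9.16 to 17.9 in tumor), while its IL-6 KO libraries did not (16.1 to 65.8 in stroma and 11.1 to 12.2 in tumor). Mrc1 was therefore the one of the 5 genes listed in both tables whose tumor libraries all ranked above all its stroma libraries. No test was made between the compartments, which were scaled apart. In bulk RNA fewer cells of a type cannot be told apart from less RNA per cell.

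**Figure D2:**
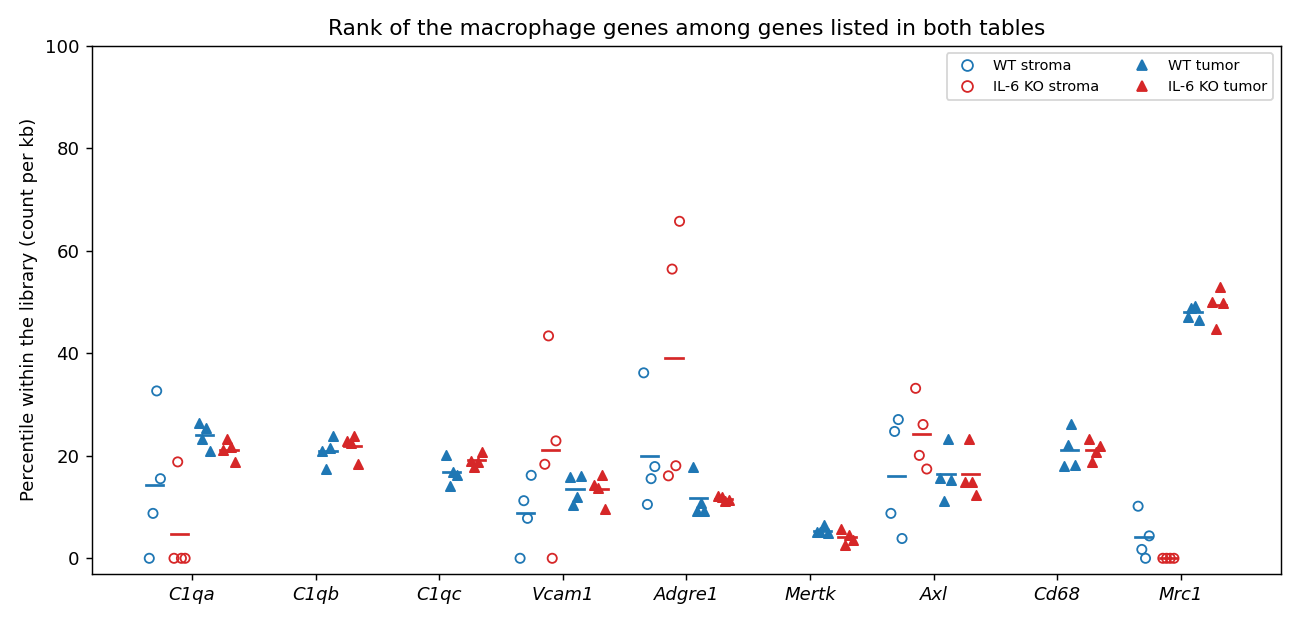
Percentile of each macrophage gene within its library, by normalized count per kilobase, among those of the 11812 genes listed in both tables that had an annotated transcript length (for C1qb, C1qc, Mertk and Cd68, the tumor table gives the value). Circles are stroma libraries, triangles tumor libraries, and short lines the means of the 4 libraries of a group; Mrc1 reaches percentile 44.8 to 53.0 in tumor and no more than 10.2 in stroma.

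The levels of genes used as markers of other cells were read beside these. Of 12 endothelial markers, only 4 were listed in the tumor table. Among these, Cdh5, Pecam1 and Eng were 12.5 to 50.7, 2227 to 2639 and 3447 to 5814 in the tumor libraries. Of the 4 endothelial markers tested, 1 was called, Vwf, against 19.8% of all genes tested in tumor. The estimates of Pecam1, Eng and Cdh5 were 0.067, 0.078 and 0.0079 on the log2 scale. Vwf had means of 26.6 in WT and 8.01 in IL-6 KO tumor, the latter under the near-0 limit of 10. Its log2 fold change was -1.93 (limma adjusted p = 0.0487), and the genotypes overlapped. Siglec1, a sialoadhesin of resident macrophages, was 22.0 to 30.96 in WT and 10.9 to 20.0 in IL-6 KO tumor. Its genotypes did not overlap, as in 25.6% of all genes, and its log2 fold change was -0.73 (limma adjusted p = 0.126). Of the genes near Mrc1 on the chromosome, Tmem236 was 9.95 to 37.5 in tumor, Cacnb2 was 472 to 749 and Stam was 787 to 1694. Cacnb2 and Stam were 2.64 to 48.5 and 26.4 to 314 in stroma, on that table's own scale. Which cells of the sorted fractions carried the Mrc1, Pecam1 or Eng transcripts was not tested.

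The genotype comparison asked whether macrophage genes differ in the marrow of leukemic hosts with and without Il6. It was made with limma on log2(normalized count + 1) over all genes of a table with a mean above 10. On this scale the added 1 shrinks differences between low values. The estimates compare mean log2 values, so they need not follow the ratio of means. In stroma, Vcam1, Adgre1 and Axl had log2 estimates of 1.06, 0.99 and 1.07. Their ratios of means, IL-6 KO over WT, were 3.16, 3.20 and 1.48. Of the 3 genes tested in stroma, 0 had a Benjamini-Hochberg adjusted p under 0.05, against 0.00820% of all 12202 genes tested (1 gene), and 0 of the 3 had an unadjusted p under 0.05, against 9.15%. In 0 of the 3 did the genotypes not overlap, against 5.79% of all genes. All 3 had a higher mean log2 value in IL-6 KO stroma, as did 49.4% of all genes, and their median log2 fold change was 1.06, beside -0.013 over all genes. That median was 0.50 without IL-6 KO library 2, 0.59 without WT library 1, 0.66 without IL-6 KO library 4 and 1.49 without IL-6 KO library 3. With 1 library left out, Vcam1 ran from 0.097 (without WT library 1) to 2.38 (without IL-6 KO library 3) and Adgre1 from 0.33 (without IL-6 KO library 4) to 1.64 (without IL-6 KO library 1).

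The intervals in stroma were wide. Axl differed by a log2 of 1.07 (SE 0.85, 95% interval -0.77 to 2.90, limma adjusted p = 0.724), with group means of 24.0 ± 21.5 in WT and 35.5 ± 12.7 in IL-6 KO (SD, n = 4 each). Vcam1 differed by 1.06 (95% interval -2.11 to 4.24, limma adjusted p = 0.857) and Adgre1 by 0.99 (-1.06 to 3.04, limma adjusted p = 0.775). The residual SD of Vcam1 on the log2 scale, 2.45, was larger than that of 96.7% of the genes tested in stroma. The intervals of all 3 genes thus hold differences in either direction. Fitted without the limit on low values, C1qa had a log2 difference of -1.44 (95% interval -4.12 to 1.25, limma adjusted p = 0.732), and Mrc1, with IL-6 KO stroma listed at 0, had a limma adjusted p of 0.615.

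In tumor, 0 of the 9 genes tested had an adjusted p under 0.05 by limma, against 19.8% of all 14493 genes tested (1542 higher and 1328 lower in IL-6 KO). At an unadjusted p under 0.05 there were 2 of 9, C1qa and Mertk, against 35.1% of all genes, and in 0 of 9 did the genotypes not overlap, against 25.6%. By sign, 7 of 9 were lower in IL-6 KO tumor, against 50.7% of all genes. The median log2 fold change was -0.30 over the 9 genes and -0.0059 over all genes. The members' median ran from -0.41 (without WT library 2) to -0.023 (without WT library 3) when 1 library was left out, and was -0.17 without IL-6 KO library 3 and -0.078 without IL-6 KO library 4. The median residual SD was 0.42 over the 9 genes and 0.21 over all genes.

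Mertk had the most negative estimate, -0.86 (SE 0.36, 95% interval -1.67 to -0.046, limma unadjusted p = 0.0403, adjusted p = 0.123), with means of 22.5 ± 4.92 in WT and 12.4 ± 4.86 in IL-6 KO tumor (SD, n = 4 each). C1qa had an estimate of -0.59 (SE 0.26, 95% interval -1.16 to -0.012, limma unadjusted p = 0.0463, adjusted p = 0.135), with means of 71.3 ± 15.6 and 47.4 ± 11.8 (SD, n = 4 each). Neither passed the correction. The adjusted p ran from 0.0959 to 0.320 for Mertk and from 0.0506 to 0.371 for C1qa over the alternatives tried.

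For the other 2 complement chains the estimates were -0.063 for C1qb (95% interval -0.71 to 0.58, limma adjusted p = 0.901) and 0.14 for C1qc (-0.43 to 0.72, limma adjusted p = 0.726). Vcam1 had an estimate of -0.34 (-1.04 to 0.36, limma adjusted p = 0.470), Adgre1 of -0.30 (-1.10 to 0.50, limma adjusted p = 0.592) and Cd68 of -0.15 (-0.85 to 0.55, limma adjusted p = 0.773). These intervals leave room for changes in either direction. Without WT library 1, the estimate for Adgre1 was 0.072. Axl had an estimate of -0.30 (-1.43 to 0.83, limma adjusted p = 0.710), which was 0.088 without WT library 3 and -0.76 without IL-6 KO library 2.

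Mrc1 was the gene measured most closely. Its estimate was 0.064 (SE 0.10, 95% interval -0.17 to 0.29, limma adjusted p = 0.698), with means of 1407 ± 72.3 in WT and 1479 ± 199 in IL-6 KO tumor (SD, n = 4 each). Its residual SD of 0.15 was smaller than that of most genes, with 32.0% of genes below it, whereas 93.1% lay below the 0.89 of Axl.

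**Figure D3:**
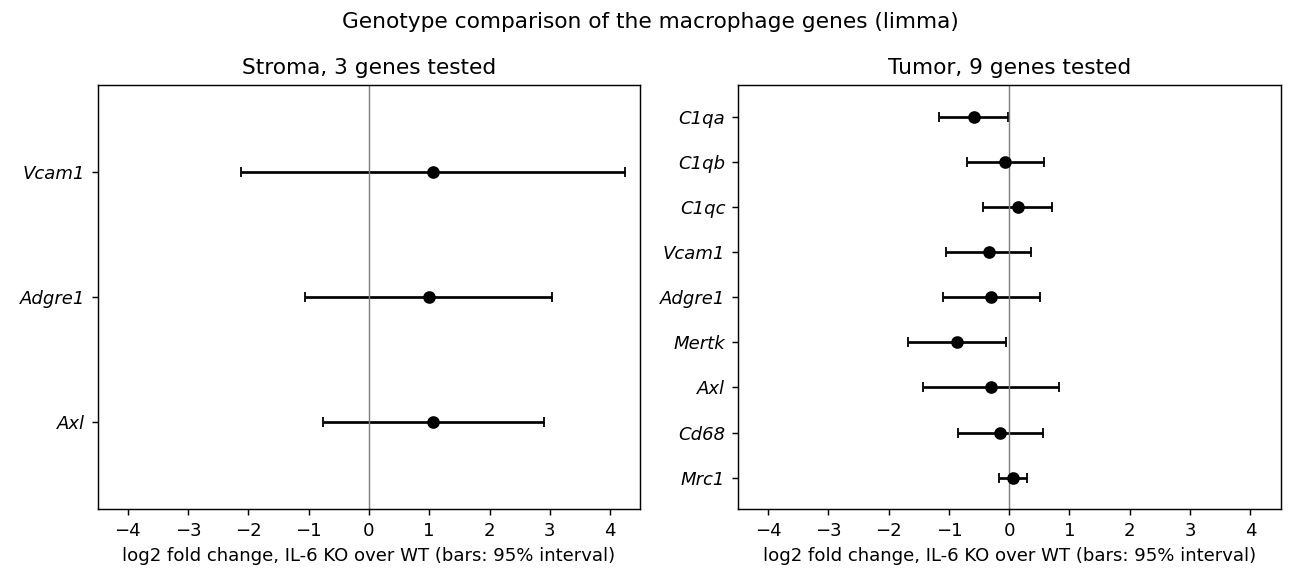
Log2 fold change of IL-6 KO over WT (points) with its 95% interval (bars) from limma for the 3 macrophage genes tested in stroma (left) and the 9 tested in tumor (right), on the log2(normalized count + 1) scale. All intervals in stroma cross 0, those of C1qa and Mertk in tumor end at -0.012 and -0.046, and the interval of Mrc1 in tumor (-0.17 to 0.29) is the narrowest.

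Markers of other myeloid cells differed between the genotypes in the tumor libraries. The summed normalized count of 16 neutrophil markers was 5005 to 5743 in WT and 8001 to 19398 in IL-6 KO tumor, and 13 of the 16 rose (limma, adjusted p under 0.05; median log2 fold change 1.53). The sum of 10 monocyte markers was 1970 to 2200 in WT and 3291 to 8339 in IL-6 KO tumor, and 6 of the 10 rose (median 1.32). Of all genes tested in tumor, 19.8% were called in either direction. The defining monocyte gene Ly6c2 was 62.4 to 83.1 in WT and 159 to 432 in IL-6 KO tumor. The estimates of 7 of the 9 macrophage genes were negative, as were those of 50.7% of all genes, and 0 of the 9 passed. Those of C1qb, Cd68, Adgre1 and Axl changed sign when 1 library was left out. The part of neutrophils and monocytes in any estimate was not tested. In stroma, the neutrophil sum was 8095 to 15562 in WT and 8334 to 34045 in IL-6 KO. It was 34045, 33105, 8334 and 29499 in IL-6 KO libraries 1 to 4, in which Adgre1 was 10.1, 118, 14.4 and 169.

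**Figure D4:**
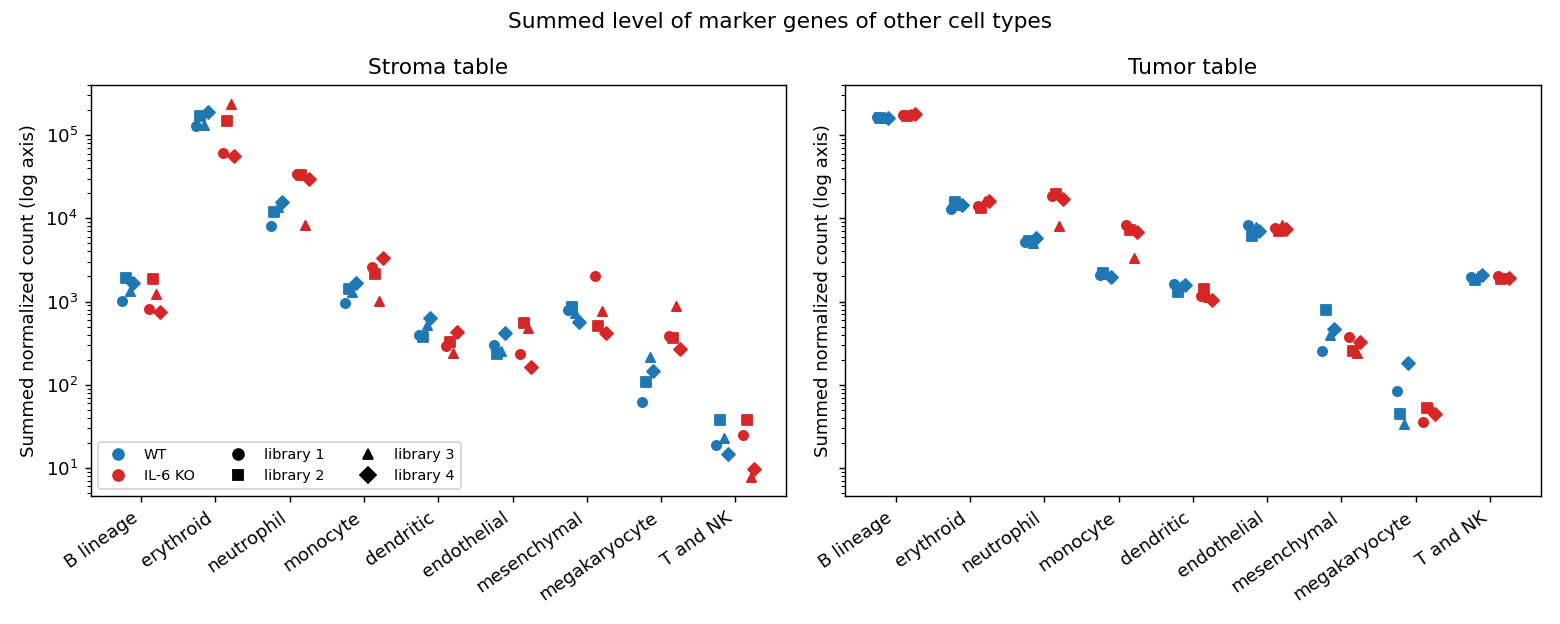
Summed normalized count (log axis) of the marker genes of 9 other cell types in each library of the stroma table (left) and the tumor table (right), with WT in blue and IL-6 KO in red. In tumor, the neutrophil sums (5005 to 5743 in WT, 8001 to 19398 in IL-6 KO) and the monocyte sums (1970 to 2200 and 3291 to 8339) do not overlap between the genotypes.

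Genes that work with these 10 were read from 7 lists, each described by its count and its median log2 fold change beside the -0.0059 (tumor) and -0.013 (stroma) of all genes. The list medians in tumor were 0.18 for surface and scavenger genes, -0.16 for complement, -0.17 for engulfment and 0.067 for heme and iron. They were 0.14 for transcription factors, 0.10 for Vcam1 partners with other niche adhesion genes, and 0.21 for lysosomal genes. In stroma they were -1.24, 0.26, 0.57, -0.46, 0.58, 0.17 and 0.13 in the same order. No list was tested as a set. The counts below stand beside the shares over all genes tested. In tumor, 19.8% of all genes passed, and the genotypes did not overlap in 25.6%. In stroma, 0.00820% passed, 9.15% had an unadjusted p under 0.05 by limma, and the genotypes did not overlap in 5.79%. Of 18 further macrophage surface and scavenger genes, 11 were tested in tumor, of which 1 rose and 1 fell. The gene that fell was Cd5l, a secreted scavenger protein of tissue macrophages. It was 91.9, 86.8, 125 and 115 in WT and 58.5, 40.2, 53.8 and 38.4 in IL-6 KO tumor, so that the genotypes did not overlap. The log2 fold change was -1.12 (SE 0.22, limma adjusted p = 0.00852), and the call held in all 16 alternatives (adjusted p 0.00351 to 0.0302). In stroma, Cd5l was 33.5, 0, 20.8 and 14.3 in WT and 0, 3.8, 8.0 and 0 in IL-6 KO (limma adjusted p = 0.705).

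Maea, which encodes an erythroblast attachment protein, was the surface gene that rose in tumor (0.23, limma adjusted p = 0.0499), a call lost in 12 of 16 alternatives. The scavenger receptor gene Marco was 83.2, 55.4, 112 and 119.8 in WT and 59.1, 57.6, 58.2 and 40.1 in IL-6 KO tumor, and its estimate was -0.73 on the log2 scale (limma adjusted p = 0.0856). In stroma, 9 genes of this list were tested and 0 passed by limma, with 1 at an unadjusted p under 0.05, Marco, at -2.93 (limma adjusted p = 0.518). Its stroma mean was 24.3 ± 24.6 in WT and 2.69 ± 3.98 in IL-6 KO (SD, n = 4 each).

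Of 8 complement genes that act with C1q, 5 were tested in tumor, 2 rose and 1 fell. C3, the central complement component, rose by a log2 of 1.79 (limma adjusted p = 0.00721) and C5ar1, the receptor for the C5a fragment, by 1.29 (limma adjusted p = 0.0390). C1qbp, a mitochondrial protein that also binds C1q, fell by 0.34 on the log2 scale (limma adjusted p = 0.0168). C3 and C5ar1 are also genes of neutrophils and monocytes, whose marker sums differed in the same libraries, and the part of those cells in these calls was not tested. In stroma, 0 of 4 passed by limma and 0 had an unadjusted p under 0.05. The tumor call for C5ar1 was lost in 6 of 15 alternatives and that for C1qbp in 1 of 16.

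Of 16 genes for engulfment and for the ligands of Axl and Mertk, 12 were tested in tumor, 0 rose and 1 fell. Elmo1, an adaptor of the engulfment machinery, fell by 0.26 on the log2 scale (limma adjusted p = 0.0383), a call lost in 7 of 16 alternatives. Cd36, a scavenger receptor, had an estimate of -0.53 on the log2 scale (limma adjusted p = 0.0530). In stroma, 0 of 11 passed by limma and 1 had an unadjusted p under 0.05, Stab1, a scavenger receptor of macrophages and sinusoidal endothelium, at 2.55 (limma adjusted p = 0.434). Its mean was 12.1 ± 3.93 in WT and 115 ± 91.4 in IL-6 KO stroma (SD, n = 4 each), and the genotypes overlapped.

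Of 12 heme and iron recycling genes, 11 were tested in tumor, 1 rose and 1 fell. Hp, the hemoglobin scavenger haptoglobin, rose by a log2 of 2.06 (limma adjusted p = 0.00585), and Fth1, the ferritin heavy chain, fell by 0.37 on the log2 scale (limma adjusted p = 0.00418). Hp is also made by maturing neutrophils. In stroma, 0 of 10 passed by limma and 4 had an unadjusted p under 0.05. Among these, Slc48a1, a heme transporter, differed by a log2 of -1.86 (545 ± 138 in WT and 172 ± 102 in IL-6 KO, SD, n = 4 each, limma adjusted p = 0.324) and Fth1 of -1.04 (limma adjusted p = 0.412). Both are also abundant in erythroid cells, whose marker sum was 129918 to 188335 in WT and 56864 to 239357 in IL-6 KO stroma.

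Of 12 transcription factors of macrophages, 11 were tested in tumor, 2 rose and 0 fell. Cebpa, a myeloid master regulator, rose by a log2 of 2.20 (limma adjusted p = 0.00263), from 16.4 ± 5.13 to 77.9 ± 19.2 (SD, n = 4 each), and Irf8 by 0.38 (limma adjusted p = 0.0115). Of 7 Vcam1 partners and other niche adhesion genes, 6 were tested in tumor, 3 rose and 0 fell. The integrin chains Itgb7 (2.17, limma adjusted p = 0.00788) and Itgb2 (0.40, limma adjusted p = 0.00421) and the adhesion molecule Icam1 (0.28, limma adjusted p = 0.0391) were those that rose, and the call for Icam1 was lost in 8 of 16 alternatives. Of 12 lysosomal genes, 11 were tested, 2 rose and 0 fell: Ctsz (0.55, limma adjusted p = 0.00612) and Hexa (1.44, limma adjusted p = 0.0172), which encode a cathepsin and a hexosaminidase. The call for Hexa was lost without IL-6 KO library 1 (limma adjusted p = 0.0563) and without IL-6 KO library 4. The neutrophil and monocyte marker sums were higher in the same IL-6 KO tumor libraries as the genes of these 3 lists that rose, and the part of those cells in these calls was not tested.

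In stroma, none of the tested genes of these last 3 lists passed by limma (0 of 11, 0 of 6 and 0 of 11, with 1 of each list at an unadjusted p under 0.05). Cebpa differed by a log2 of 1.42 (70.6 ± 11.6 in WT and 207 ± 96.3 in IL-6 KO, SD, n = 4 each, limma adjusted p = 0.432) with no overlap of the genotypes. Itga4, the alpha chain of the main Vcam1 receptor, had one of -0.92 (limma adjusted p = 0.432), also with no overlap, and Hexa one of 1.21 (limma adjusted p = 0.514).

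The genes whose pattern over the 8 tumor libraries was most like the mean of the 3 C1q chains were named by a fixed measure. Among 11232 genes with a mean of at least 50, the smallest mean absolute difference in log2 value, after centring each gene, was found for Pigo (0.054), Cdca3 (0.062), Wdr5b (0.066), Lpar6 (0.083) and Cox19 (0.088), beside a median of 0.24 over all genes. The C1q profile itself departed by at most 0.38 from its mean, so that small differences are common. In stroma C1qa alone was listed, and no such comparison was made.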

How the data were processed

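The authors sequenced rRNA-depleted RNA, quantified transcripts with Salmon 1.3.0 on mm10 correcting for sequence bias and GC content, and scaled the estimated counts with DESeq2 1.28.1. The deposited normalized counts, 1 table for stroma and 1 for tumor, hold a scaled signal rather than whole reads, so no count model was fitted; the authors' own columns of fold changes and p-values were not used. Whole reads could not be recovered, and the depth per library is unknown. All 16 libraries were used and grouped by the genotype and compartment in their labels. The 10 genes and the lists were chosen with earlier results of these data known.

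Genes with a mean normalized count above 10 entered a limma fit (3.58.1, R 4.3.3; lmFit and eBayes with trend) on log2(normalized count + 1), genotype as the only term, 2 tables fitted apart, two-sided, with Benjamini-Hochberg adjustment over all genes of the table and a threshold of 0.05. The script was tested on simulated data. Named genes were the 10 members, up to 3 genes with the smallest p in each of 7 lists per table, the 5 genes nearest to the C1q profile, and markers beside which a result was read. Gene positions and the longest transcript came from GENCODE vM21 (GRCm38), and promoters from RefSeq. The alternatives were pseudocounts of 0.5 and 5, no filter, a mean above 50, quantile normalization, median centring, array weights, replicate number added to the model as a block, removal of 1 library at a time, and percentiles with no length correction. Within each table, WT and IL-6 KO samples with the same replicate number did not deviate together, so the numbers were not taken as pairs. The correlations were -0.03 to 0.13 in stroma and -0.02 to -0.0003 in tumor. No correlation was computed between tumor and stroma samples of the same number. In IL-6 KO, the neutrophil marker sum was lowest in library 3 of both compartments (8334 in stroma and 8001 in tumor). In WT it was lowest in library 1 of stroma and library 3 of tumor. Figures and tables were made with Python 3.11.15, pandas 2.3.3 and matplotlib 3.10.9.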

Additional observations from a re-analysis of the deposited data

Results flagged for a closer look

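In 4 of the 27 groups of 4 libraries examined, 1 library lay far from the other 3 by Dixon's criterion. About 1 of 20 groups of normally distributed values meet it by chance, a rate that need not hold for these counts. A group with 1 library above 0 and the other 3 at 0 always meets it. Axl was 259 in IL-6 KO tumor library 2, against 57.5 to 86.4 in the other 3. Adgre1 was 109 in WT tumor library 1, against 33.8 to 43.4. C1qb was 32.4 in IL-6 KO tumor library 4, against 59.7 to 64.7. C1qa was 6.5 in IL-6 KO stroma library 2, where the other 3 were listed at 0. Library numbers differed between these genes, and no reason for the values was tested.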

How the results depend on the processing

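The count of macrophage genes passing was 0 in both tables under all 8 alternatives with every library and with each of the 8 libraries left out. Of 187 recomputed fold changes of these genes, 8 changed sign, all in tumor and none past the threshold: quantile normalization gave 0.19 for C1qb and 0.10 for Cd68, and leaving out 1 library gave ranges of -0.22 to 0.16 for C1qb, -0.32 to 0.099 for Cd68, -0.48 to 0.072 for Adgre1, -0.76 to 0.088 for Axl and -0.0099 to 0.15 for Mrc1. Among the list genes in stroma, Cd93 was -0.041 with array weights, and without 1 library the ranges were -0.081 to 0.39 for Cd93, -0.020 to 0.98 for C5ar1 and -0.043 to 0.67 for Itgb2. The number of all genes passing in stroma was 1, or 4 with array weights and 1 to 3 without 1 library; in tumor it was 2870, and 1569 (without IL-6 KO library 4) to 3327 without 1 library and up to 4153 with array weights. With the replicate block, 1 gene passed in stroma and 2230 in tumor, and no call of a macrophage gene changed. Without length correction, 15 of 28 group percentiles moved by more than 1 SD, and Mrc1 averaged 60.7 in WT and 61.4 in IL-6 KO tumor. The cause of these shifts was not tested. Values under about 10 normalized counts, as in stroma, limit what can be seen of C1qa and Mrc1 there.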
